A study of Mus musculus with 6 samples.

Results

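The genes described here encode the transforming growth factor beta (TGF-beta) ligands, the latent TGF-beta binding proteins and the TGF-beta receptors: Tgfb1, Tgfb2, Tgfb3, Ltbp1, Ltbp2, Ltbp3, Ltbp4, Tgfbr1, Tgfbr2 and Tgfbr3. They were chosen by symbol in the GENCODE M21 mouse annotation, and all 10 were found among the 23154 gene IDs of the count tables. All 10 also passed the filter on low counts, which left 12509 genes to test.

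TGF-beta is made as a precursor that is cut within the cell but stays wrapped in its own propeptide, so it is secreted in a latent form. LTBP proteins are large glycoproteins that bind this latent complex and fix it to the fibrillin and fibronectin matrix, from which integrins, thrombospondin and proteases release it. Freed ligand binds the type II receptor, which recruits and phosphorylates the type I receptor, and the type I receptor phosphorylates SMAD2 and SMAD3. In cultured myoblasts the pathway is known for holding back myogenic differentiation and for raising matrix gene expression.

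RNA-seq was performed in C2C12 cells, an established mouse myoblast line. HA-NUR77 libraries came from cells carrying the doxycycline-inducible construct pINDUCER20b-HA-NUR77, which expresses HA-tagged NUR77, an orphan nuclear receptor (3 libraries, 1 dish each). GFP libraries came from cells carrying pINDUCER20b-GFP as the control (3 libraries, 1 dish each). Both lines received doxycycline at 1 µg/mL from 24 hours after seeding, for 18 hours, so the drug is common to all 6 libraries. Libraries are named by group and replicate number (HA-NUR77 1, GFP 1). The labels name 1 stable line per construct, and a difference between the lines cannot be told apart from an effect of the construct. The free text on cell growth names the HA-NUR77 line for all 6 libraries, and the groups follow the titles and the construct field.

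The libraries held 13906096 to 22821446 counts. Nr4a1, the mouse gene for NUR77, had 437, 445 and 355 reads in the HA-NUR77 libraries and 327, 196 and 417 in the GFP libraries (edgeR log2 fold change 0.14, SE 0.24, adjusted p = 0.698). The labels do not say from which species the insert comes, so these reads do not check the labels. Over all genes tested, 25.6% were called at an adjusted p under 0.05 by edgeR's quasi-likelihood test, 12.4% higher (1549 genes) and 13.2% lower (1655 genes) in HA-NUR77. With the replicate number as a block, 48.1% were called, 23.5% higher and 24.6% lower. Leaving out HA-NUR77 1 gave 660 higher and 904 lower, and leaving out GFP 1 gave 634 and 843. Leaving out HA-NUR77 3 or GFP 2 gave 1025 or 909 higher. All 6 myoblast markers were detected, with summed levels of 5730 to 6512 counts scaled to library size (CPM) in HA-NUR77 and 3632 to 4828 CPM in GFP, and 2 of the 6 were higher (Cdh15 and Itga7), or 4 higher (also Myod1 and Des) and 1 lower (Myf5) with the replicate block. The 7 markers of differentiated muscle summed to 12706 to 15271 CPM in HA-NUR77 and 7986 to 11836 CPM in GFP, and 1 of the 7 was higher (Myh3), or 5 with the replicate block (also Mymk, Ckm, Acta1 and Tnnt3). The part of these marker differences in the results below was not tested. Markers of macrophages, endothelium, epithelium and adipocytes summed to at most 5.46 CPM per list in any library, with Epcam, Krt18, Adipoq and Plin1 at 0 reads in all 6.

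Most of the pathway's ligand, storage and receptor transcripts were lower in HA-NUR77 cells, and 1 was higher. Of the 10 genes, 6 fell (Tgfb1, Tgfb2, Tgfb3, Ltbp2, Ltbp3 and Tgfbr2), 1 rose (Ltbp1) and 3 did not pass the test (Ltbp4, Tgfbr1 and Tgfbr3). Their fall rate of 6 in 10 stands against 13.2% of all genes, and their median log2 fold change was -0.43, against 0.0077 over all genes tested. DESeq2 called 8 of the 10 and limma-voom 7, against 27.9% and 26.0% of all genes. The groups did not overlap in CPM for 8 of the 10, 7 lower and 1 higher, against 45.6% of all genes tested in either direction, 22.5% lower and 23.0% higher. The 10 genes were chosen with earlier results of the same libraries known, so these counts describe them and are not a test. In bulk RNA, fewer cells expressing a gene and less RNA per cell cannot be told apart.

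**Figure D1:**
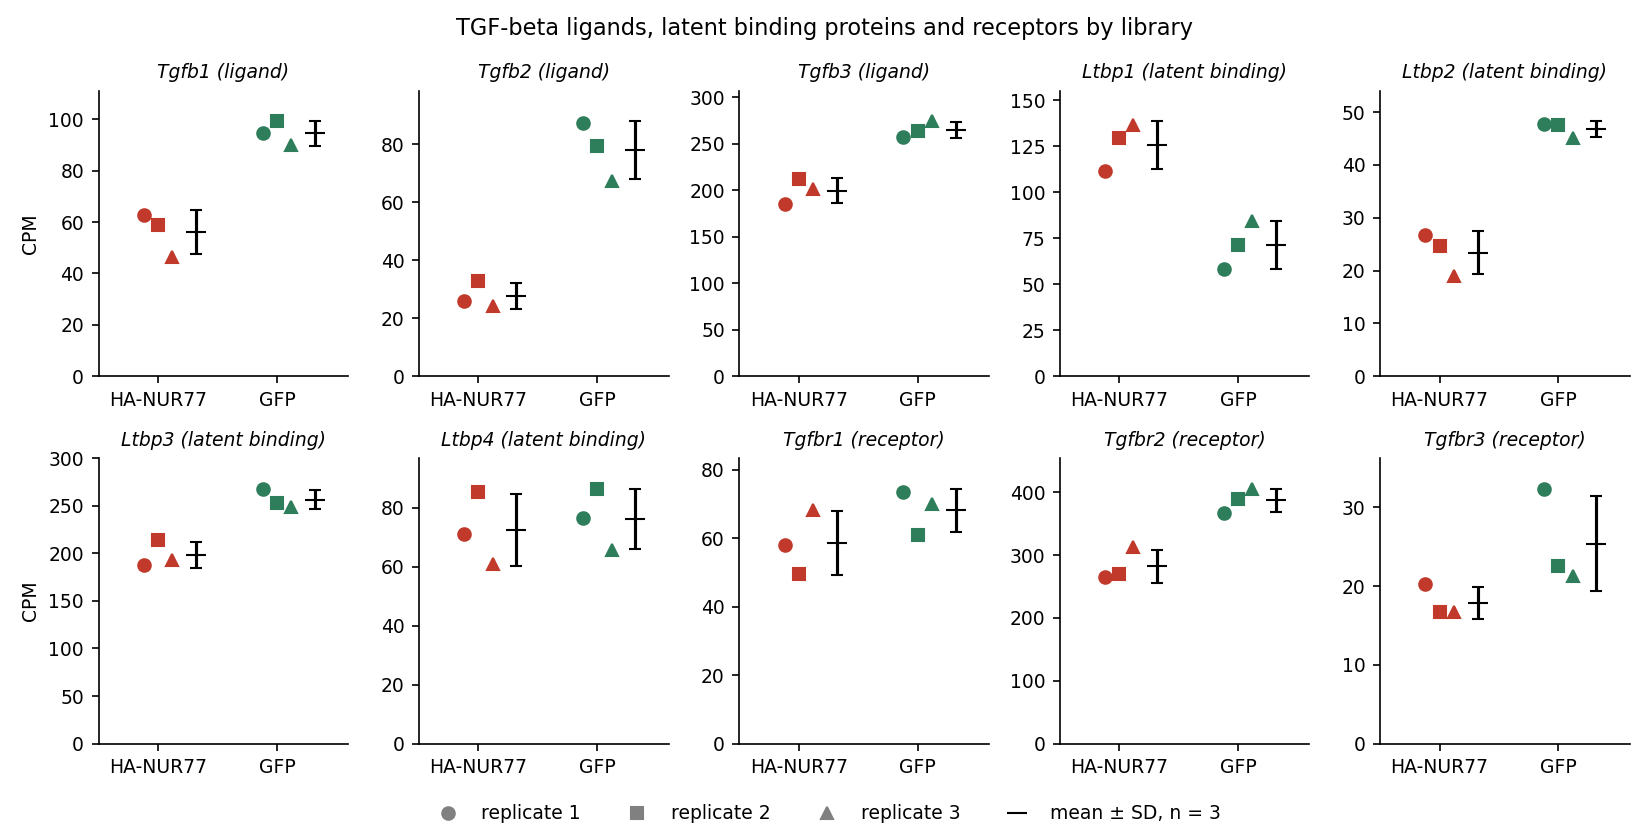
CPM (vertical axis, from 0) of each of the 10 genes in the 3 HA-NUR77 libraries (left, red) and the 3 GFP libraries (right, green). Marker shapes give the replicate number and black bars the mean ± SD (n = 3). The groups are apart in every panel except Ltbp4 and Tgfbr1, and Ltbp1 is the gene with HA-NUR77 above GFP.

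All 3 ligand genes fell, by different amounts. Tgfb2 (chromosome 1, 186622792 to 186705989, minus strand, GRCm38) had 25.8, 32.8 and 24.2 CPM in HA-NUR77 replicates 1, 2 and 3, against 87.3, 79.3 and 67.3 CPM in GFP replicates 1, 2 and 3. Every HA-NUR77 library stood below every GFP library. The fall was 2.82-fold (95% interval 2.24 to 3.53, log2 fold change -1.49, SE 0.14, edgeR adjusted p = 0.000656), and 3.01% of genes tested had a larger absolute change. TGF-beta 2 is the ligand that binds poorly to the type II receptor unless betaglycan presents it.

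Tgfb1 (chromosome 7, 25687002 to 25705077, plus strand), the most widely expressed isoform in the body, had 62.9, 59.0 and 46.6 CPM in HA-NUR77, against 94.5, 99.4 and 89.9 CPM in GFP. HA-NUR77 replicate 3 was the lowest library and the groups did not overlap. Tgfb1 fell 1.68-fold (95% interval 1.40 to 2.02, log2 fold change -0.75, SE 0.11, edgeR adjusted p = 0.00425).

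Tgfb3 (chromosome 12, 86056745 to 86079041, minus strand), the isoform best known for palate and lung development, had 185.5, 211.6 and 201.1 CPM in HA-NUR77, against 257, 263 and 274 CPM in GFP. The groups were again apart, by a smaller distance. The fall was 1.33-fold (95% interval 1.18 to 1.50, log2 fold change -0.41, SE 0.074, edgeR adjusted p = 0.00836). The 95% interval of the log2 change of Tgfb2, -1.82 to -1.16, lay below those of Tgfb1 (-1.01 to -0.49) and Tgfb3 (-0.58 to -0.24).

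Per kilobase of exon, Tgfb3 was the leading ligand in every library. The 3 ligands summed to 71.8, 79.9 and 72.9 CPM per kilobase in HA-NUR77 replicates 1, 2 and 3, and to 109.8, 111.2 and 110.5 in the GFP replicates. Tgfb3 made up 78.7% ± 2.62 of that sum in HA-NUR77 and 70.8% ± 2.21 in GFP (SD, n = 3). The share of Tgfb2 was 6.34% ± 0.686 in HA-NUR77 and 12.2% ± 1.61 in GFP, and that of Tgfb1 was 14.9% ± 2.36 and 17.0% ± 0.797. For the sum and for the shares of Tgfb3 and Tgfb2 the groups did not overlap, at an exact two-sided permutation p of 0.1, which is the smallest that 3 against 3 libraries can give (0.186 adjusted over the 13 shares and sums computed). For the share of Tgfb1 the exact p was 0.3.

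Promoter windows from RefSeq (GRCm38.p6, 250 bases before to 50 after a start) were found for 8 of the 10 genes, in 12 windows. They are shown for the ligand with the largest fall and for the gene that rose, which has a pair of annotated starts. Capitals mark every match, on either strand, to the letters searched: AAAGGTCA (the NBRE, the monomer site of NR4A receptors), AGGTCA (the nuclear receptor hexamer, which the NBRE contains), TGACGTCA (the CRE), TGACTCA (the AP-1 element), GTCTAGAC (a SMAD palindrome), CACGTG (the E-box), TATAAA (the TATA element) and GGGCGG (the GC box).
Tgfb2, chr1:186705940-186706239, minus strand: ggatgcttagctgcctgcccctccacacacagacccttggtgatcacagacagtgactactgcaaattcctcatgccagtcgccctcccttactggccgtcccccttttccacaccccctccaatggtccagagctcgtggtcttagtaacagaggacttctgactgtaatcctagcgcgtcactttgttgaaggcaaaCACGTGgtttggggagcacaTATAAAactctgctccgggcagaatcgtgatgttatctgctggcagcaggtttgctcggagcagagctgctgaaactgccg
Ltbp1 upstream start, chr17:75005279-75005578, plus strand: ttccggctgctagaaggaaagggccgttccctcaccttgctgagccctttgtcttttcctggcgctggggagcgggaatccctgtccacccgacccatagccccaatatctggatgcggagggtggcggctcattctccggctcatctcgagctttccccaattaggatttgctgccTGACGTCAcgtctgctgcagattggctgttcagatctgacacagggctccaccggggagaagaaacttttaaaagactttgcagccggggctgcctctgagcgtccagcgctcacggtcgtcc
Ltbp1 downstream start, chr17:75178531-75178830, plus strand: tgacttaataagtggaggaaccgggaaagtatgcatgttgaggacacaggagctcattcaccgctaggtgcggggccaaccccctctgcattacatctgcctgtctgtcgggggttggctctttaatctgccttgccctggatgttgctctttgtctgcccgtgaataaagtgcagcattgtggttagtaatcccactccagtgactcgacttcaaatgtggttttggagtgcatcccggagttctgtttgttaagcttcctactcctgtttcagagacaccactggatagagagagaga
The Tgfb2 window holds an E-box 51 bases before the start and a TATA element 31 bases before it. Over all 32851 windows of this length, 7.15% hold the E-box and 13.6% the TATA element. The upstream Ltbp1 window holds a CRE 73 bases before its start, a motif in 1.79% of windows, and the downstream window holds no match. Of the 12 windows, the E-box, the TATA element, the CRE and the AP-1 element each occur in 1. The AP-1 element, in 5.2% of all windows, is in that of Ltbp3, which is not printed. The letters AAAGGTCA and AGGTCA occur in 0 of the 12 windows, against 1.51% and 16.3% of all windows, and the SMAD palindrome in 0, against 0.213%. The NBRE and the SMAD palindrome are so rare that 12 windows cannot show a lack of them. Tgfb3 and Tgfbr3 had no window, and sites outside the windows were not searched. The GC box occurs in 6 of the 12 windows, against 35.7%, and 3 of the 6 belong to Ltbp4, of which a pair overlap almost fully and share most of their GC boxes.

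Among the latent binding protein genes, Ltbp1 rose while Ltbp2 and Ltbp3 fell. Ltbp1 (chromosome 17, 75005568 to 75392512, plus strand) encodes a binding protein that attaches latent TGF-beta covalently and anchors it to the matrix. It had 111.5, 129.6 and 136.4 CPM in HA-NUR77, against 58.2, 71.2 and 84.5 CPM in GFP. The lowest HA-NUR77 library lay above the highest GFP library. The rise was 1.77-fold (95% interval 1.41 to 2.22, log2 fold change 0.82, SE 0.14, edgeR adjusted p = 0.00725). Counts per gene do not separate the transcripts of the 2 starts printed above.

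Ltbp2 (chromosome 12, 84783212 to 84876532, minus strand), the family member that does not bind latent TGF-beta and attaches to elastic fibres, had 26.7, 24.6 and 18.9 CPM in HA-NUR77, against 47.7, 47.6 and 45.1 CPM in GFP. The GFP libraries lay close together, above all HA-NUR77 libraries. The fall was 1.99-fold (95% interval 1.63 to 2.43, log2 fold change -0.99, SE 0.12, edgeR adjusted p = 0.00198).

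Ltbp3 (chromosome 19, 5740904 to 5758532, plus strand), another binder of latent TGF-beta with a known part in bone growth, had 187.5, 214.1 and 193.2 CPM in HA-NUR77, against 268, 252 and 249 CPM in GFP. The groups did not overlap. Its fall was 1.29-fold (95% interval 1.14 to 1.46, log2 fold change -0.37, SE 0.077, edgeR adjusted p = 0.0131), which missed the threshold when HA-NUR77 1 (adjusted p = 0.0629) or GFP 1 (adjusted p = 0.0539) was left out. The offset for length and GC content moved it to -0.23 (adjusted p = 0.0395). Its count is uncertain, since no source used here states whether counting used the strand, and without it reads from the other strand cannot be told apart.

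Ltbp4 (chromosome 7, 27305136 to 27337692, minus strand), which binds latent TGF-beta 1 weakly and is required for elastic fibre assembly, had 71.2, 85.2 and 60.7 CPM in HA-NUR77, against 76.4, 86.3 and 65.7 CPM in GFP. The groups overlapped over most of their range. The log2 fold change was -0.070 (95% interval -0.40 to 0.26, edgeR adjusted p = 0.739, or 0.287 with the replicate block). Its sign was not stable, at 0.039 with HA-NUR77 3 left out and 0.029 with GFP 2 left out.

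The summed level of the binding proteins differed less than that of the ligands, while their composition shifted toward Ltbp1. The sum was 47.7 ± 3.66 CPM per kilobase in HA-NUR77 and 52.5 ± 1.32 in GFP (SD, n = 3, exact permutation p = 0.2). Ltbp1 made up 24.7% ± 2.73 of it in HA-NUR77 and 12.7% ± 2.59 in GFP. Ltbp3 was the largest component of every library, at 45.9% ± 0.598 in HA-NUR77 and 53.9% ± 2.13 in GFP, and Ltbp2 made up 6.01% ± 1.10 and 10.9% ± 0.153. For these 3 shares the groups did not overlap (exact permutation p = 0.1 each, the smallest possible, 0.186 adjusted over 13). Ltbp4 made up 23.4% ± 2.54 in HA-NUR77 and 22.4% ± 2.48 in GFP (exact permutation p = 0.6). Within each of the 3 replicate numbers the sum was lower and the Ltbp4 share higher in the HA-NUR77 library.

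**Figure D2:**
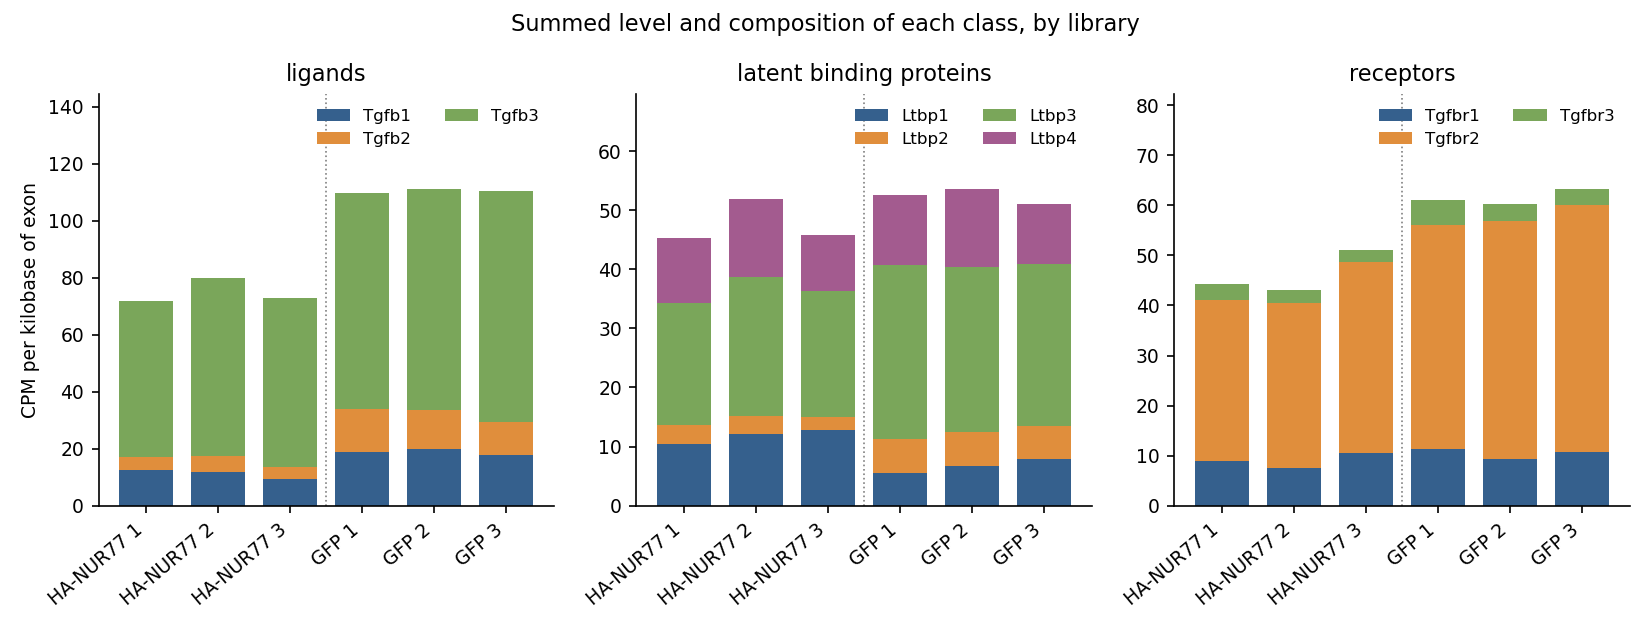
Stacked levels of the ligands, latent binding proteins and receptors in each library, in CPM per kilobase of exon, with the HA-NUR77 libraries left of the dotted line and the GFP libraries right of it. The ligand stack is 71.8 to 79.9 in HA-NUR77 and 109.8 to 111.2 in GFP, and the Ltbp1 segment is the one that is larger in the HA-NUR77 libraries.

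Of the receptor genes, Tgfbr2 fell, and Tgfbr1 and Tgfbr3 did not pass the test without a block. Tgfbr2 (chromosome 9, 116084293 to 116175360, minus strand), the ligand-binding type II kinase, had 265, 269.8 and 312 CPM in HA-NUR77, against 367, 389.5 and 404 CPM in GFP. All HA-NUR77 libraries were below all GFP libraries, and Tgfbr2 had the highest CPM of the 10 genes in both groups. The fall was 1.37-fold (95% interval 1.19 to 1.58, log2 fold change -0.46, SE 0.088, edgeR adjusted p = 0.0104).

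Tgfbr1 (chromosome 4, 47353222 to 47414931, plus strand), the type I kinase ALK5 that phosphorylates SMADs, had 57.9, 49.5 and 68.4 CPM in HA-NUR77, against 73.4, 61.0 and 70.0 CPM in GFP. HA-NUR77 replicate 3 fell within the GFP range. Its log2 fold change was -0.22 (SE 0.13, 95% interval -0.52 to 0.074, edgeR adjusted p = 0.229), and it moved to -0.11 with HA-NUR77 2 left out, to -0.34 with HA-NUR77 3 left out and to -0.12 with an offset for length and GC content. With the replicate block it was -0.23 and was called lower (adjusted p = 0.0179), although the log2 difference within replicate 3 was -0.034, against -0.34 and -0.30 within replicates 1 and 2.

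Tgfbr3 (chromosome 5, 107106570 to 107289629, minus strand), which encodes betaglycan, the co-receptor that presents TGF-beta 2, had 20.3, 16.7 and 16.7 CPM in HA-NUR77, against 32.4, 22.6 and 21.2 CPM in GFP. The groups did not overlap, but GFP replicate 1 stood well above the other GFP libraries. The log2 fold change was -0.51 (SE 0.17, 95% interval -0.91 to -0.10, edgeR adjusted p = 0.0665), and -0.29 with GFP 1 left out (adjusted p = 0.16). The gene was called lower with the replicate block (-0.50, adjusted p = 0.000532), by DESeq2 (-0.51, adjusted p = 0.0364) and with GFP 3 left out (-0.63, adjusted p = 0.0444).

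The receptors summed to 44.3, 43.1 and 51.1 CPM per kilobase in HA-NUR77 and to 61.0, 60.4 and 63.4 in GFP, without overlap (exact permutation p = 0.1, the smallest possible). The ranges of their proportions overlapped between the groups. Tgfbr2 made up 74.7% ± 1.75 of the sum in HA-NUR77 and 76.8% ± 2.86 in GFP (SD, n = 3, exact permutation p = 0.3), Tgfbr1 19.4% ± 1.54 and 16.9% ± 1.46 (p = 0.2), and Tgfbr3 5.97% ± 0.998 and 6.32% ± 1.58 (p = 0.8). Within all 3 replicate numbers the Tgfbr1 share was higher and the Tgfbr2 share lower in the HA-NUR77 library. The shares of a class sum to a whole, so these directions are not separate observations. The labels state no pairing, the permutation tests do not use the numbers, and the pattern was not tested.

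**Figure D3:**
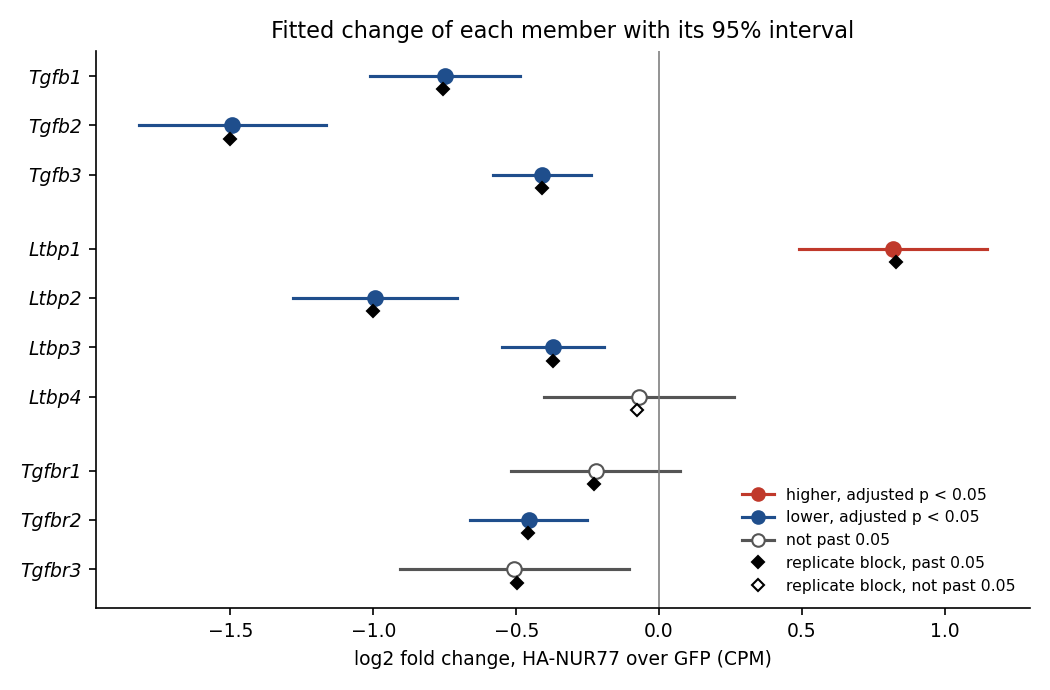
Fitted log2 fold change of HA-NUR77 over GFP for each gene (circles) with its 95% interval (lines), and the value with the replicate number as a block (diamonds, filled where past the threshold). Tgfb2, at -1.49, lies farthest below 0 and Ltbp1, at 0.82, is the gene above 0, and the intervals of Ltbp4 and Tgfbr1 span 0.

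Ranked by level per kilobase, Tgfb3, Tgfbr2 and Ltbp3 led in both groups, at 58.9 ± 3.87, 34.5 ± 3.18 and 21.9 ± 1.54 CPM per kilobase in HA-NUR77 and 78.3 ± 2.55, 47.3 ± 2.29 and 28.3 ± 1.11 in GFP (SD, n = 3). Below them the order differed between the groups. In HA-NUR77 came Ltbp1 (11.8 ± 1.21), Ltbp4 (11.2 ± 1.89) and Tgfb1 (11.1 ± 1.69), which did not differ beyond their SDs, then Tgfbr1 (8.97 ± 1.44), Tgfb2 (4.77 ± 0.789), Ltbp2 (2.86 ± 0.496) and Tgfbr3 (2.74 ± 0.312), of which the last pair did not differ beyond its SD. In GFP came Tgfb1 (18.8 ± 0.942), Tgfb2 (13.5 ± 1.74), Ltbp4 (11.8 ± 1.59), Tgfbr1 (10.4 ± 0.974), Ltbp1 (6.67 ± 1.23), Ltbp2 (5.72 ± 0.179) and Tgfbr3 (3.88 ± 0.929). There Tgfb2 and Ltbp4, Ltbp4 and Tgfbr1, and Ltbp1 and Ltbp2 lay within their SDs of each other. These levels divide by the union of annotated exons, from 3383 bases for Tgfb3 to 10691 bases for Ltbp1.

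Genes with the most similar pattern over the 6 libraries were sought for the 3 genes with the smallest adjusted p, by the root mean square difference of centred log2 CPM among 11863 protein-coding genes. For Tgfb2 these were Camk1g and Nav3 (differences 0.071 and 0.074, log2 fold changes -1.52 and -1.61). For Ltbp2 they were the lysyl oxidase family gene Loxl1 (0.065, log2 fold change -0.97) and the fibrillar collagen gene Col5a1 (0.068, -1.02). For Tgfb1 they were Sfxn1 and Robo1 (differences 0.064 and 0.065, log2 fold changes -0.67 and -0.75). The measure includes the difference between the groups, so near-equal fold changes follow from the search.

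Other genes of the pathway also tended to be lower, most often the target genes. Of 78 further pathway genes tested, counting each once, 34 fell, 2 rose and 42 did not pass, against 13.2% lower and 12.4% higher over all genes. Their median log2 fold change was -0.37. With the replicate block 49 of the 78 fell and 4 rose, against 24.6% lower and 23.5% higher over all genes. These lists were chosen with earlier results of the same libraries known and are described by their counts. The lists share genes, since Ldlrad4, Pmepa1, Smad7, Skil and Tgif1 are each among the target genes and in another list.

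Of 25 genes tested that TGF-beta is known to induce in many cells, 18 fell, 0 rose and 7 did not pass. With the replicate block 22 fell. Over all genes 13.2% were lower, or 24.6% with the block. The log2 fold changes of the 25 genes had a median of -0.74. DESeq2 and limma-voom also called 0 of them higher, and edgeR put 0 higher at an unadjusted p under 0.05. Col1a1, the main chain of type I collagen, stood at 198, 252 and 190.1 CPM in HA-NUR77 and 1163, 1113 and 1077 CPM in GFP, a 5.24-fold fall (edgeR adjusted p = 7.76e-05). Ccn4, a matricellular protein, fell 3.22-fold (adjusted p = 0.000224), the metalloprotease Adam12 4.76-fold (adjusted p = 0.000232) and Nox4, an NADPH oxidase, 2.85-fold (adjusted p = 0.00025). Fn1, fibronectin and the most abundant of the list, fell 1.76-fold, to 9303 ± 1292 CPM in HA-NUR77 against 16369 ± 1249 CPM in GFP (SD, n = 3, edgeR adjusted p = 0.00634).

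Of 18 genes tested that activate or store the latent ligand, 7 fell, 0 rose and 11 did not pass. With the replicate block 12 fell and 2 rose (Mmp2 and Plau). Over all genes 13.2% were lower and 12.4% higher, or 24.6% and 23.5% with the block. The median log2 fold change of the list was -0.46. None was higher at an unadjusted edgeR p under 0.05 (0 of 18), and DESeq2 and limma-voom called 0 higher. Thbs1, thrombospondin, which frees TGF-beta from its propeptide, had 887, 960 and 735 CPM in HA-NUR77, against 2423, 2802 and 2365 CPM in GFP. It fell 2.94-fold (edgeR adjusted p = 0.000326). Fbn1, the fibrillin to which LTBPs anchor, fell 2.02-fold, to 1711 ± 274 CPM in HA-NUR77 against 3454 ± 366 CPM in GFP (SD, n = 3, adjusted p = 0.00344). The membrane metalloprotease Mmp14 fell 2.04-fold (adjusted p = 0.00379) and the proteoglycan Bgn, which binds TGF-beta, 2.06-fold (adjusted p = 0.00403). With GFP 1 left out, Mmp2 was called higher, and with the offset for length and GC content, Itgb8.

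Among co-receptors and regulators of the receptors, 5 of 15 tested fell, 1 rose and 9 did not pass (6 fell with the replicate block). Over all genes 13.2% were lower and 12.4% higher, or 24.6% and 23.5% with the block. The median log2 fold change of the list was -0.14. The falls were in Ldlrad4 (log2 fold change -1.37, SE 0.16) and Pmepa1 (-0.74, SE 0.12), which are TGF-beta-induced inhibitors of the pathway, Vasn (-0.64, SE 0.12), a TGF-beta-binding membrane protein, the endocytic adaptor Dab2 (-0.53, SE 0.11) and the ubiquitin ligase Smurf2 (-0.33, SE 0.077), with edgeR adjusted p from 0.0016 to 0.0191. Strap, a receptor-binding WD-repeat protein, rose (0.29, SE 0.070, adjusted p = 0.0234). With the offset for length and GC content 3 of the list were called higher (Strap, Nedd4l and Usp15). Strap missed the threshold with HA-NUR77 1, HA-NUR77 3, GFP 1 or GFP 2 left out (adjusted p 0.0631 to 0.0827), and Smurf2 with HA-NUR77 1, HA-NUR77 3 or GFP 1 left out (0.0537 to 0.0693).

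SMADs and their co-regulators had 5 of 15 tested lower, 1 higher and 9 not past the threshold (9 lower with the replicate block). Over all genes 13.2% were lower and 12.4% higher, or 24.6% and 23.5% with the block. The median log2 fold change of the list was -0.19. The inhibitory Smad7 fell to 6.47 ± 1.78 CPM in HA-NUR77 against 11.8 ± 1.53 CPM in GFP (SD, n = 3, log2 fold change -0.85, edgeR adjusted p = 0.0219). Skil (-0.56, adjusted p = 0.00479) and Ski (-0.44, adjusted p = 0.0197), which encode repressors of SMAD transcription, fell, as did the repressor Tgif2 (-0.87, adjusted p = 0.00496) and the SMAD4 ubiquitin ligase Trim33 (-0.51, adjusted p = 0.0263). Ppm1a, a phosphatase described as acting on SMAD2 and SMAD3, rose (0.22, adjusted p = 0.0428). Ep300, the most abundant of the list by its mean over all 6 libraries, stood at 174 ± 6.61 CPM in HA-NUR77 and 199 ± 8.15 CPM in GFP (SD, n = 3, edgeR adjusted p = 0.0688, or 0.0103 with the replicate block). Leaving out HA-NUR77 1, HA-NUR77 3 or GFP 2 left 3 of these genes lower, and leaving out GFP 1 left 2. In these fits Smad7 missed the threshold each time (adjusted p 0.0518 to 0.0834), Ski with HA-NUR77 1, GFP 1 or GFP 2 left out (0.0539 to 0.0736) and Trim33 with HA-NUR77 3 or GFP 1 left out (0.0572 and 0.0947). Ppm1a kept its call with HA-NUR77 2 left out and missed the threshold with any other library left out (0.0526 to 0.14) and with no filter on low counts (0.0679).

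Receptors of the activin and myostatin arm also phosphorylate SMAD2 and SMAD3. Of 10 genes of this arm tested, 3 fell, 0 rose and 7 did not pass (5 fell with the replicate block). Over all genes 13.2% were lower, or 24.6% with the block. DESeq2 and limma-voom likewise called 0 higher, with 0 at an unadjusted edgeR p under 0.05. The activin subunit gene Inhbb had 43.7, 48.8 and 45.0 CPM in HA-NUR77, against 96.9, 116.7 and 100.2 CPM in GFP, and fell 2.28-fold (edgeR adjusted p = 0.000243). Its relative Inhba fell 2.72-fold (adjusted p = 0.00361) and the follistatin-like gene Fstl1, the most abundant of the list, 2.06-fold (adjusted p = 0.00613). The list had a median change of -0.30 on the log2 scale.

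**Figure D4:**
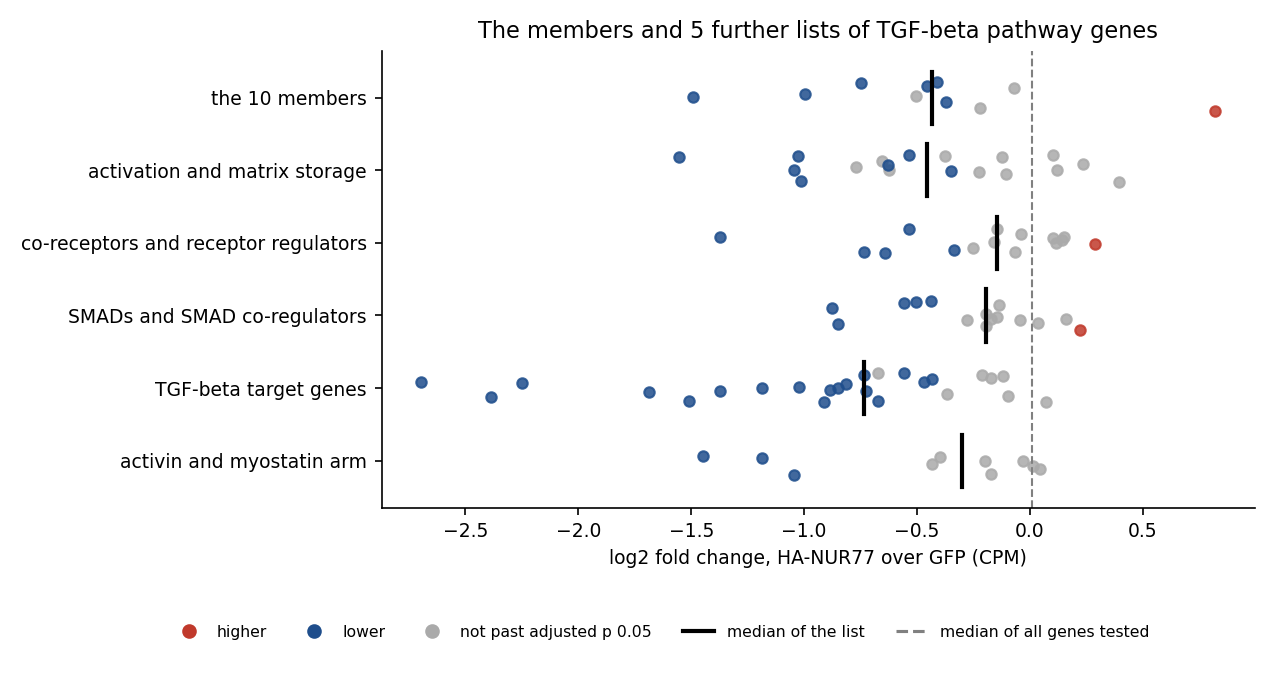
Log2 fold change of HA-NUR77 over GFP (horizontal axis) for the 10 genes and for the tested genes of 5 further pathway lists. Each gene has 1 dot in each list that holds it. Dots are coloured by whether the gene was higher, lower or not past an adjusted p of 0.05. Black bars are list medians, from -0.74 for the target genes to -0.14 for the co-receptors and receptor regulators, and the dashed line is the median of all genes tested, 0.0077.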

How the data were processed

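The authors deposited 1 table of raw counts of reads per Ensembl gene for each of 6 libraries, with no scaling. The submitters' processing notes name TopHat2 2.1, HTSeq, DESeq2 and the build mm10. The sources used here do not name the annotation release or strand setting. Per the labels' protocols, libraries were stranded and poly(A)-selected. Symbols matched GENCODE M21 (GRCm38) for 22888 of 23154 IDs.

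Groups were compared in R 4.3.3 by the quasi-likelihood test of edgeR 4.0.16, with TMM scaling, filterByExpr (minimum count 10), robust fitting and Benjamini-Hochberg adjustment over 12509 genes, with a threshold of 0.05. CPM are scaled by total and TMM factor, and "fold" is the fitted change. Intervals of 95% and p-values rest on 3 dishes per group. No replicates were duplicates (chi-square between libraries of a group, per degree of freedom, at least 11.4). Alternatives used DESeq2 1.42.0, limma-voom (limma 3.58.1), other scalings, no filter, an offset for length and GC content (mgcv 1.9.3), a replicate block and leaving out each library. The fit was tested on simulated counts with 200 genes changed and no effect of the replicate number. That simulation does not test the fit where same-numbered libraries deviate together or where as many genes change as here.

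Same-numbered libraries deviated together, with correlations of 0.25, 0.55 and 0.47 over genes for numbers 1, 2 and 3. The labels do not state a pairing, so the main fit and the permutation tests do not use the numbers. The block by replicate number is an alternative, and with it the share of genes called was 48.1%, against 25.6% without. Where the block changes the call of a named gene or a list's counts, its value is given.

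Named are all 10 genes and, of each list, the most abundant member, up to 4 with the smallest adjusted p past the threshold, and all members called in a direction with 5 or fewer. The genes and lists were chosen with earlier results of these data known. Per-class shares were compared by exact permutation.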

Additional observations from a re-analysis of the deposited data

How the results depend on the processing

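Of the 140 comparisons of the 10 genes' fold changes with an alternative, 131 kept their direction and side of the threshold. The calls of Tgfb1, Tgfb2, Tgfb3, Ltbp1, Ltbp2 and Tgfbr2 held under all 14 alternatives run. Ltbp4, never past the threshold, turned positive with the offset for length and GC content (log2 fold change 0.12), and ranged from -0.20 to 0.039 with a library left out, positive with HA-NUR77 3 (0.039) or GFP 2 (0.029) left out. Members lower numbered 5 to 7 with a library left out, 7 with DESeq2 and 8 with the replicate block, and members higher 1 throughout. Over all genes, the replicate block gave 2942 higher and 3071 lower, and leaving out a library gave 634 to 1476 higher and 843 to 1558 lower. Of the further pathway genes, 1 was higher with no filter on low counts, 4 with the replicate block and 5 with the offset for length and GC content, and 0 to 2 with a library left out, when 26 to 38 were lower. With the block 49 were lower. The causes were not tested. The block changed the calls of Tgfbr1 and Tgfbr3 and of no other of the 10 genes. For genes with no read, 3 counts correspond to 0.131 to 0.216 CPM, which covers counting error only.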

Other observations

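Some pathway genes were at or near the floor in these cells. Mstn, which encodes myostatin, and the cell cycle inhibitor Cdkn2b had 0 reads in all 6 libraries, a count that allows up to 0.216 CPM in the shallowest library. Tgfbi, often used as a TGF-beta target, averaged 0.158 ± 0.0157 CPM in HA-NUR77 and 0.215 ± 0.0694 CPM in GFP (SD, n = 3), and Bambi, a decoy receptor, 0.122 ± 0.132 CPM in HA-NUR77 and 0.0454 ± 0.0394 CPM in GFP.

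Within each replicate number, 9 of the 10 genes were lower in the HA-NUR77 library than in the GFP library all 3 times. Ltbp1 was higher all 3 times. The share of all genes with the same direction all 3 times was not computed, so these counts only describe the 10 genes. Some differences were small, at -0.10, -0.020 and -0.11 for Ltbp4 within replicates 1, 2 and 3, and -0.034 for Tgfbr1 within replicate 3. The log2 difference of Ltbp1 was 0.94, 0.86 and 0.69 within replicates 1, 2 and 3, that of Tgfb2 was -1.76, -1.27 and -1.48, and that of Tgfbr3 was -0.68, -0.43 and -0.34.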
